A study of Mus musculus with 6 samples.

Results

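NADPH oxidases are enzymes whose main product is reactive oxygen, and the genes described here encode their catalytic subunits, their partners and the enzyme that removes superoxide outside the cell. The list held 9 genes, Nox1, Nox4, Cyba, Cybb, Ncf1, Ncf4, Rac2, Sod3 and Duox2, and a gene was read on every probe set of the array whose single annotated symbol was one of these names. By that rule 7 of the 9 genes were measured, on 14 probe sets, among 18194 genes measured in all. Nox1 and Duox2 had no such probe set in the annotation used here, so the vascular catalytic subunits were read on Nox4 alone and Duox2 was not read. The genes had been listed with earlier results of these arrays known.

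Gene expression was measured in wire-injured carotid arteries of mice lacking IRF4 in the whole body (IRF4 KO) and of wild-type mice (WT), 14 days after the injury. Each genotype had 3 Affymetrix arrays, and each array held RNA pooled from 3 to 5 vessels, so that the spread between arrays is a spread between pools. The labels call the arrays of a genotype biological replicates. The labels do not state the deleted part of Irf4 or the strain, sex and age of the mice.

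An NADPH oxidase carries electrons from NADPH across a membrane to oxygen. Phagocytes use the catalytic subunit gp91phox (Cybb, also called NOX2), which sits in the membrane with p22phox (Cyba) and becomes active when the cytosolic proteins p47phox (Ncf1) and p40phox (Ncf4) and the GTPase RAC2 join it. Smooth muscle cells of the artery use NOX1, which needs an organizer, an activator and a RAC protein, and NOX4, which needs p22phox but no cytosolic subunit and releases mainly hydrogen peroxide. SOD3 is a secreted copper and zinc enzyme that is held in the matrix of the vessel wall and turns superoxide into hydrogen peroxide.

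The promoters bear on the design, because IRF proteins bind interferon response elements, built of paired GAAA repeats, and IRF4 binds together with PU.1 at composite elements of GGAA and GAAA. The interferon response element was searched as GAAA, any 2 bases and GAAA, and the composite element as GGAA, any 2 bases and GAAA, on both strands over the 250 bases before the gene start, and capitals mark the matches. Of the 9 genes, 6 had a promoter in the RefSeq table of GRCm38.p6. The 2 phagocyte subunits among them, Cybb and Ncf1, were those with a match, and their sequences are shown for that reason. Each is written on the gene's own strand, which is the minus strand for both. The gene start used for Cybb lies inside the annotated span of the gene, chrX:9435252-9487766, and not at its outer end.
Cybb, chrX:9469325-9469574: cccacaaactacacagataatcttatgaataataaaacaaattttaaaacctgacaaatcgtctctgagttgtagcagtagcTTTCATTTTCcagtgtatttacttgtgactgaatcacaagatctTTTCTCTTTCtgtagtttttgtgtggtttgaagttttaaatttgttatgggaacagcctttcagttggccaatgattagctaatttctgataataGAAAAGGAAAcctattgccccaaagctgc
Ncf1, chr5:134229626-134229875: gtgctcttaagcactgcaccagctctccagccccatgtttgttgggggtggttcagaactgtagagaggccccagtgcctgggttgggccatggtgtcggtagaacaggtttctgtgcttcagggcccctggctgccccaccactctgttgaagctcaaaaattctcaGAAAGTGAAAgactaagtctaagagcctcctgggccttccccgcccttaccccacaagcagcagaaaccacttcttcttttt

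The Cybb window held 3 matches to the interferon response element, and the Ncf1 window held 1. Of 32851 promoter windows of the same length, 978 (2.98%) held at least 1 such match, and 4 (0.0122%) held 3 or more. No window of these 6 genes matched the composite element before the gene start, where 2.3% of all windows did. In the whole table window of 300 bases, searched after the values were seen, Cybb had a match to the composite element on the opposite strand just after the gene start, and 2.72% of all such windows held one. That site is shown in capitals with its flanks.
Cybb, chrX:9469307-9469326: gctgtTTTCATTTCCtcatc
Matches did not overlap each other, and Nox1, Nox4, Cyba and Duox2 had none. A match of letters is a description of the window and does not show binding.

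The arrays differed in ways that touch nearly every value below. Poly-A spike-in controls, which are bacterial RNAs mixed into each sample ahead of labelling, averaged 5.14 in IRF4 KO 1 and 4.93 in WT 3, against 7.35 to 9.26 in the other 4 arrays (log2 intensity). Each genotype thus had 1 array with low controls, and each difference between genotypes was also read within these sets of arrays. The targeted gene Irf4 read 3.57 ± 0.26 in IRF4 KO and 3.64 ± 0.26 in WT on its brighter probe set (SD, n = 3), below the median of all gene means (4.89), so it did not check the genotype labels. Values are log2 intensities made by the authors with RMA, which pulls dim probe sets toward background and understates their changes. Each change given is the IRF4 KO mean minus the WT mean in log2 units, with the moderated standard error (SE) of limma.

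None of the 7 measured genes passed the comparison of IRF4 KO with WT. With limma, 0 of the 7 had an adjusted p under 0.05 over all genes and 0 had an unadjusted p under 0.05; over all 18194 genes the shares were 0% and 1.49%. In 0 of the 7 genes did the genotypes separate without overlap, against 5.68% of all genes. The change was positive for 5 genes and negative for Cyba and Cybb, and 49.7% of all genes had a positive change. Each of the 7 genes had an adjusted p of 0.999.

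**Figure D1:**
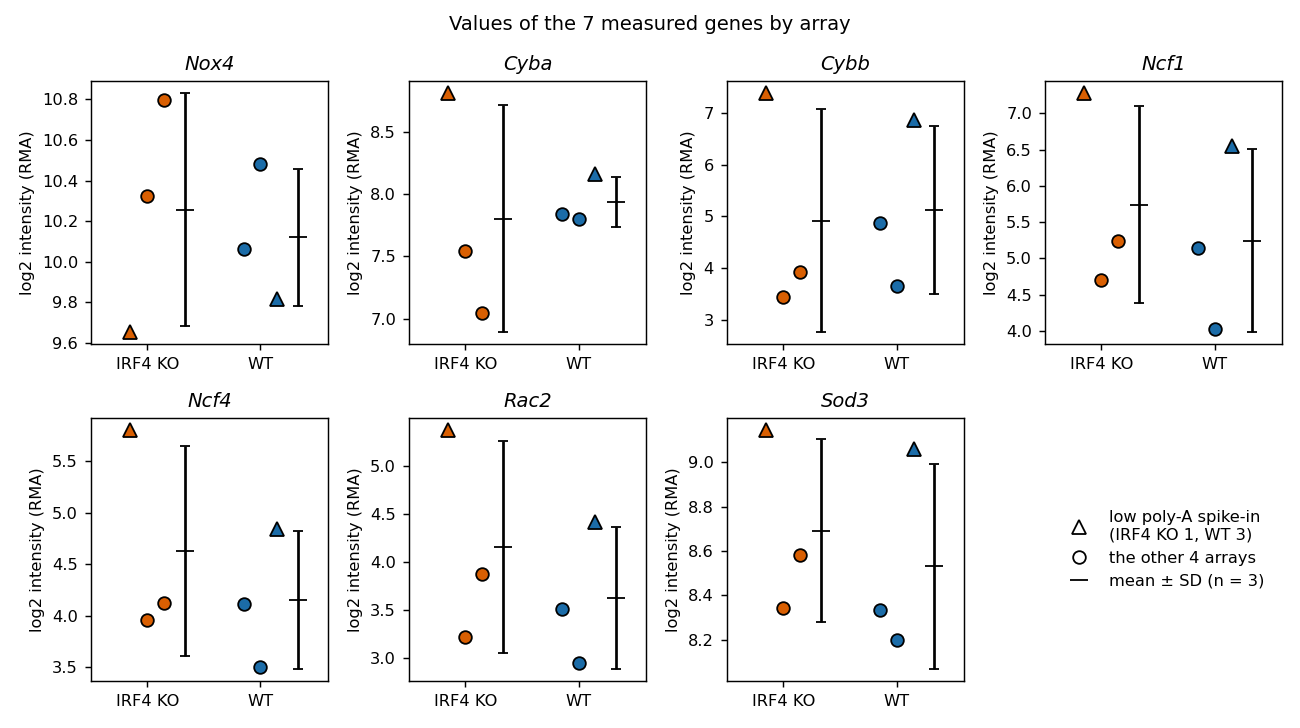
Log2 intensity of each measured gene on the probe set used, with 1 point per array, IRF4 KO left and WT right, and the mean ± SD of 3 arrays beside the points; each panel has its own axis. Triangles are IRF4 KO 1 and WT 3, whose poly-A controls were low, which were the highest array of their genotype for Cybb, Ncf1, Ncf4, Rac2, Cyba and Sod3 and the lowest for Nox4.

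Nox4, the catalytic subunit known from smooth muscle and other cells of the vessel wall, read 9.65, 10.32 and 10.80 in IRF4 KO 1 to 3 and 10.06, 10.48 and 9.82 in WT 1 to 3. The genotypes overlapped, and the lowest value of each came from the array with low spike-in controls. The change was 0.14 (SE 0.32, 95% interval -0.59 to 0.86, limma adjusted p = 0.999). IRF4 KO 1 minus WT 3 was -0.16 and the difference over the other 4 arrays 0.29, so the sign differed between the sets. Without IRF4 KO 3 the change was -0.13, and without WT 3 it was -0.02.

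The second Nox4 probe set read 7.67, 8.15 and 8.55 in IRF4 KO 1 to 3 and 7.49, 8.26 and 7.43 in WT 1 to 3. Here the change was 0.39 (SE 0.30, limma adjusted p = 1 over all probe sets). It was positive within each set of arrays, 0.24 for IRF4 KO 1 minus WT 3 and 0.47 for the rest. Both probe sets of Nox4 therefore had a positive mean change that was smaller than the SDs of the 2 genotypes on the first and close to them on the second (0.44 in IRF4 KO and 0.46 in WT).

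Cyba encodes p22phox, the membrane partner of NOX1, NOX2 and NOX4. It read 8.81, 7.55 and 7.05 in IRF4 KO 1 to 3 and 7.84, 7.80 and 8.16 in WT 1 to 3. The 3 WT arrays lay inside the range of the IRF4 KO arrays, whose SD was 0.91 against 0.20 in WT. The change was -0.13 (SE 0.41, 95% interval -1.08 to 0.81, limma adjusted p = 0.999). IRF4 KO 1 exceeded WT 3 by 0.65, whereas over the other 4 arrays the difference was -0.52, with both IRF4 KO arrays below both WT arrays. The difference between these 2 values was 1.17 (SE 0.48, limma adjusted p = 1). That interaction term passed in 0.0824% of all genes and in 0 of the 7. Without IRF4 KO 3 the change was 0.25.

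Cybb, the catalytic subunit of the phagocyte oxidase, varied more between arrays than any other of the 7 genes. It read 7.38, 3.44 and 3.93 in IRF4 KO 1 to 3 and 4.87, 3.65 and 6.85 in WT 1 to 3. IRF4 KO 1 and WT 3 stood far above the other 4 arrays. The change was -0.21 (SE 1.09, limma adjusted p = 0.999), and its 95% interval ran from -2.72 to 2.30, so that a change of several fold in either direction lay within it. The sign differed between the sets of arrays, with IRF4 KO 1 minus WT 3 at 0.53 and the other 4 arrays at -0.58.

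Cybb had 2 more probe sets. One read 5.93, 3.30 and 4.30 in IRF4 KO 1 to 3 and 4.16, 3.34 and 5.22 in WT 1 to 3, with a change of 0.27 (SE 0.68, limma adjusted p = 1). The dimmest read 3.92, 2.92 and 3.06 in IRF4 KO 1 to 3 and 2.71, 2.74 and 2.89 in WT 1 to 3, and it was the 1 probe set of the 14 whose genotypes did not overlap, against 6.24% of all probe sets. Its change was 0.52 (SE 0.27, limma adjusted p = 1), and it lay below the median gene level on all 6 arrays. The probe sets of Cybb thus differed in the sign of the mean change, and with their mean in place of the brightest probe set the change was 0.19. Without WT 3 the brightest probe set gave 0.65, without IRF4 KO 2 0.53 and without IRF4 KO 3 0.28.

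Ncf1 encodes p47phox, the organizer that brings the cytosolic subunits to the membrane. It read 7.28, 4.71 and 5.24 in IRF4 KO 1 to 3 and 5.15, 4.03 and 6.55 in WT 1 to 3. As for Cybb, IRF4 KO 1 and WT 3 were the 2 highest arrays, and the genotypes overlapped. The change was 0.50 (SE 0.76, 95% interval -1.26 to 2.25, limma adjusted p = 0.999), with IRF4 KO 1 minus WT 3 at 0.73 and the other 4 arrays at 0.38. It was -0.27 without IRF4 KO 1 and -0.11 without WT 2. The other Ncf1 probe sets were dim, from 1.999 to 3.81 over the 6 arrays, and gave changes of 0.32 (SE 0.22) and 0.0004 (SE 0.25), both with a limma adjusted p of 1.

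Ncf4 encodes p40phox, which binds a phosphoinositide of the phagosome membrane. Its probe set read 5.81, 3.96 and 4.12 in IRF4 KO 1 to 3 and 4.12, 3.50 and 4.84 in WT 1 to 3, with a mean below the median gene level. The change was 0.48 (SE 0.52, 95% interval -0.72 to 1.67, limma adjusted p = 0.999), and it was -0.11 without IRF4 KO 1. IRF4 KO 1 exceeded WT 3 by 0.96, and the difference over the other 4 arrays was 0.23.

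Rac2, the RAC GTPase of blood cells, read 5.37, 3.22 and 3.88 in IRF4 KO 1 to 3 and 3.50, 2.95 and 4.41 in WT 1 to 3. The change was 0.53 (SE 0.56, 95% interval -0.75 to 1.82, limma adjusted p = 0.999), with IRF4 KO 1 minus WT 3 at 0.96 and the other 4 arrays at 0.32. Leaving out IRF4 KO 1 gave -0.08. The dimmer Rac2 probe set stayed between 3.02 and 3.47 on all 6 arrays and gave a change of 0.10 (SE 0.19, limma adjusted p = 1).

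Sod3 read 9.15, 8.34 and 8.58 in IRF4 KO 1 to 3 and 8.33, 8.20 and 9.06 in WT 1 to 3. The array with low spike-in controls was the highest of each genotype, and the genotypes overlapped. The change was 0.16 (SE 0.30, 95% interval -0.53 to 0.85, limma adjusted p = 0.999). It was positive within both sets, 0.09 for IRF4 KO 1 minus WT 3 and 0.20 in the other 4 arrays, but -0.07 without IRF4 KO 1 and -0.005 without WT 2.

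The second Sod3 probe set gave the largest mean change of the 14. It read 6.75, 5.68 and 5.93 in IRF4 KO 1 to 3 and 4.78, 5.84 and 5.41 in WT 1 to 3. The IRF4 KO arrays were above the WT arrays except for IRF4 KO 2, which lay below WT 2. The change was 0.78 or 1.72-fold (SE 0.35, 95% interval -0.03 to 1.59, limma adjusted p = 1). IRF4 KO 1 minus WT 3 was 1.34, and the difference over the other 4 arrays was 0.50. The 2 Sod3 probe sets thus had changes of one sign but unequal size.

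**Figure D2:**
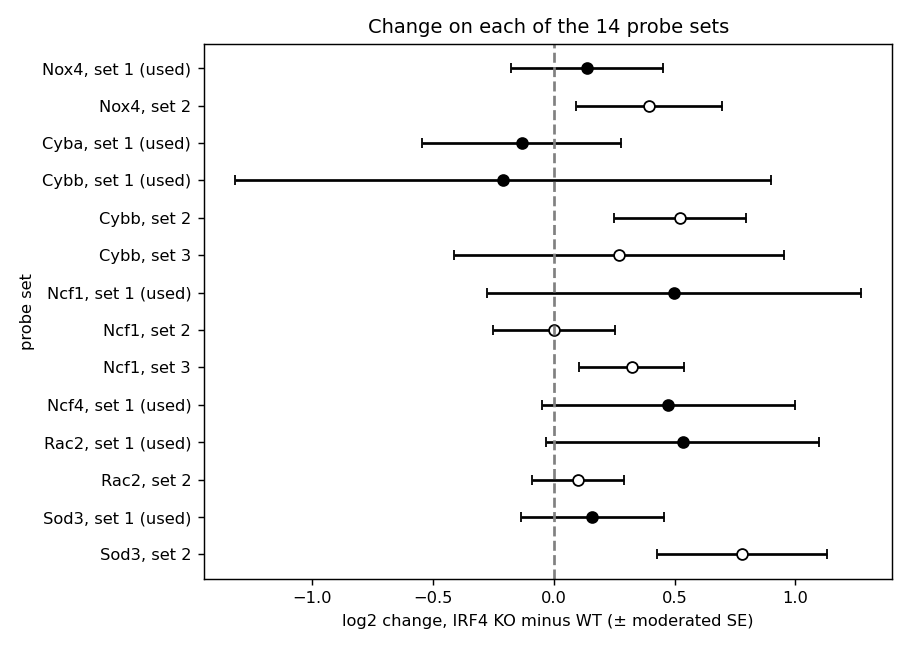
Log2 change of IRF4 KO minus WT on each of the 14 probe sets, with the moderated SE of a limma fit over 34958 probe sets; filled points mark the probe set used for the gene. The changes ran from -0.21 (Cybb) to 0.78 (the second Sod3 probe set), and none had an adjusted p under 0.05.

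The phagocyte subunits were set against the vascular one as changes, since levels of different probe sets cannot be compared. The mean change of Cybb, Ncf1 and Ncf4 minus that of Nox4 was 0.12, while the same quantity had an SD of 1.78 between arrays of a genotype. Relative to each gene's mean over the 6 arrays, the 3 phagocyte subunits averaged 1.85, -0.93 and -0.54 in IRF4 KO 1 to 3 and -0.26, -1.24 and 1.11 in WT 1 to 3. Nox4 was at -0.54, 0.13 and 0.61 in IRF4 KO 1 to 3 and at -0.13, 0.30 and -0.37 in WT 1 to 3. Phagocyte subunits were above their mean and Nox4 below its mean in IRF4 KO 1 and WT 3, in both genotypes alike. No test was made on this difference, because the genes were chosen with earlier results known.

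Genes of the phagocyte oxidase differed between the sets of arrays. The 2 sets were formed after earlier results had shown that IRF4 KO 1 and WT 3 stand apart, and the set is not a condition of the study, so the differences between sets describe these arrays and are no independent evidence. In a limma fit with genotype and spike-in set, 4 of the 7 genes were higher in IRF4 KO 1 and WT 3 than in the other 4 arrays at an adjusted p under 0.05 over all genes, and 0 were lower; over all genes 4.77% were higher and 0.445% lower. Cybb was higher by 3.14 (SE 0.35) and Ncf1 by 2.14 (SE 0.30). Rac2 was higher by 1.51 (SE 0.27) and Ncf4 by 1.40 (SE 0.25). The differences of Cyba (0.93), Sod3 (0.74) and Nox4 (-0.68) did not pass. In the same fit, the genotype term passed for 0 of the 7 genes and 0% of all genes, with an adjusted p of 0.995 for each of the 7.

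**Figure D3:**
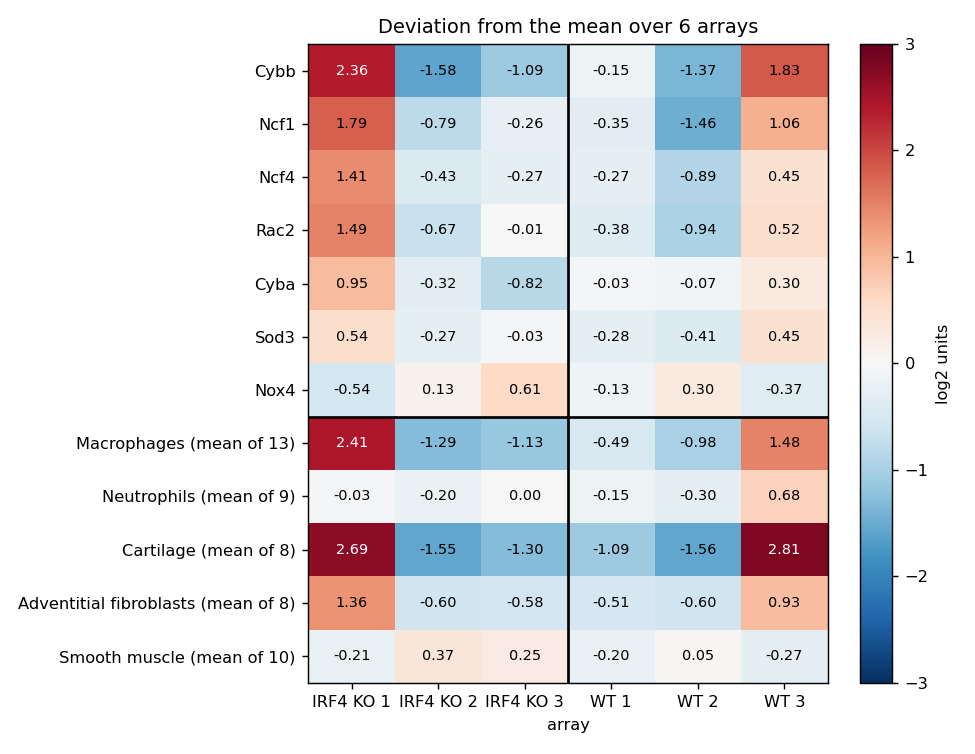
Deviation of each measured gene (top) and of the mean of each marker list (bottom) from its own mean over the 6 arrays, in log2 units, with IRF4 KO arrays left and WT arrays right. Cybb was at 2.36 in IRF4 KO 1 and 1.83 in WT 3, and the macrophage markers were at 2.41 and 1.48 in those arrays.

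Macrophages and neutrophils carry the phagocyte oxidase, and most of the macrophage markers moved with it. Relative to their 6-array mean, 13 of 13 measured macrophage markers averaged 2.41, -1.29 and -1.13 in IRF4 KO 1 to 3 and -0.49, -0.98 and 1.48 in WT 1 to 3. Of these, 10 were higher in IRF4 KO 1 and WT 3 at an adjusted p under 0.05 and 0 were lower (4.77% and 0.445% of all genes), and 2 had a mean below the median gene level. Csf1r, the receptor for the macrophage growth factor, read 10.30, 5.40 and 5.82 in IRF4 KO 1 to 3 and 6.99, 5.63 and 9.72 in WT 1 to 3, the same order of arrays as for Cybb. Itgam, an integrin of myeloid cells named after its values were seen, was dim on all 6 arrays (2.47 to 3.08). Mertk, a receptor for dying cells, stayed between 7.69 and 8.28. Fcgr1, named after its values were seen, was not higher in IRF4 KO 1 and WT 3. It read 5.43, 5.39 and 5.74 in IRF4 KO 1 to 3 and 5.43, 5.22 and 5.00 in WT 1 to 3. In whole arteries, a change in the number of cells of a type and in the RNA of each cell cannot be told apart, and the part of macrophage content in the values of the oxidase genes was not tested.

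Neutrophil markers were read in the same way. Their mean over 9 measured genes was at -0.03, -0.20 and -0.003 in IRF4 KO 1 to 3 and at -0.15, -0.30 and 0.68 in WT 1 to 3, and 9 of 9 had means below the median gene level. The brightest by mean level, Ngp, a granule protein gene, read 4.23, 4.29 and 5.03 in IRF4 KO 1 to 3 and 4.51, 3.61 and 5.45 in WT 1 to 3, and Elane, neutrophil elastase, stayed between 3.63 and 4.42. Under the set term 2 of the 9 were higher in IRF4 KO 1 and WT 3 and 0 were lower, namely S100a8 and S100a9, calcium-binding proteins of neutrophils and monocytes, named after their values were seen. S100a8 read 4.42, 3.09 and 3.27 in IRF4 KO 1 to 3 and 3.31, 3.36 and 7.27 in WT 1 to 3, and S100a9 3.97, 2.66 and 3.06 in IRF4 KO 1 to 3 and 3.41, 2.74 and 6.13 in WT 1 to 3. The genotype difference of S100a8 differed between the sets, with an interaction of -2.70. For the macrophage marker Ctss, named after its values were seen, the interaction had the opposite sign, 3.92. Each of these values rests on 1 array against 1 in the set with low controls. S100a8 and S100a9 were highest in WT 3, whereas Cybb, Ncf1, Ncf4 and Rac2 were highest in IRF4 KO 1. Cartilage markers were at 2.69 in IRF4 KO 1 and 2.81 in WT 3, and between -1.56 and -1.09 in the others, with Col2a1 at 12.16 and 12.07 against 3.75 to 5.15 and Acan at 9.59 and 9.78 against 5.29 to 6.19. Fibroblast markers were at 1.36 and 0.93 against -0.60 to -0.51, with Col3a1 between 12.07 and 13.29 and Dcn between 8.76 and 11.16. Under the set term 6 of 8 cartilage markers and 5 of 8 fibroblast markers were higher in IRF4 KO 1 and WT 3, and 0 were lower. Markers of smooth muscle cells were at -0.21, 0.37 and 0.25 in IRF4 KO 1 to 3 and at -0.20, 0.05 and -0.27 in WT 1 to 3. Acta2 averaged 13.89 ± 0.04 in IRF4 KO and 12.75 ± 0.12 in WT, and Tagln 13.25 ± 0.06 in IRF4 KO and 12.17 ± 0.10 in WT (SD, n = 3, limma adjusted p = 0.252 for both). Over the 10 smooth muscle markers 0 passed between genotypes, 4 changes were positive and 6 negative, and the median was -0.04. An unadjusted limma p under 0.05 was found for 3 of the 10, against 1.49% of all genes. They were Acta2, Tagln and Smtn. Smtn, named after its values were seen, had a change of 1.09 (SE 0.17). Among the other lists, 1 of 4 B cell markers (Ms4a1) was lower in IRF4 KO 1 and WT 3 than in the rest, as was 1 of the smooth muscle markers (Des). Higher there were 1 of 5 T cell markers (Cd3g), 2 of 7 osteoclast markers (Acp5 and Ctsk) and 1 of 8 endothelial markers (Tie1). Des, Cd3g, Acp5 and Tie1 are named after their values were seen. The brightest osteoclast marker, the protease gene Ctsk, read 9.34, 6.28 and 6.29 in IRF4 KO 1 to 3 and 6.18, 6.32 and 8.50 in WT 1 to 3. The part of these cells in the values of Nox4 and Sod3 was not tested.

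**Figure D4:**
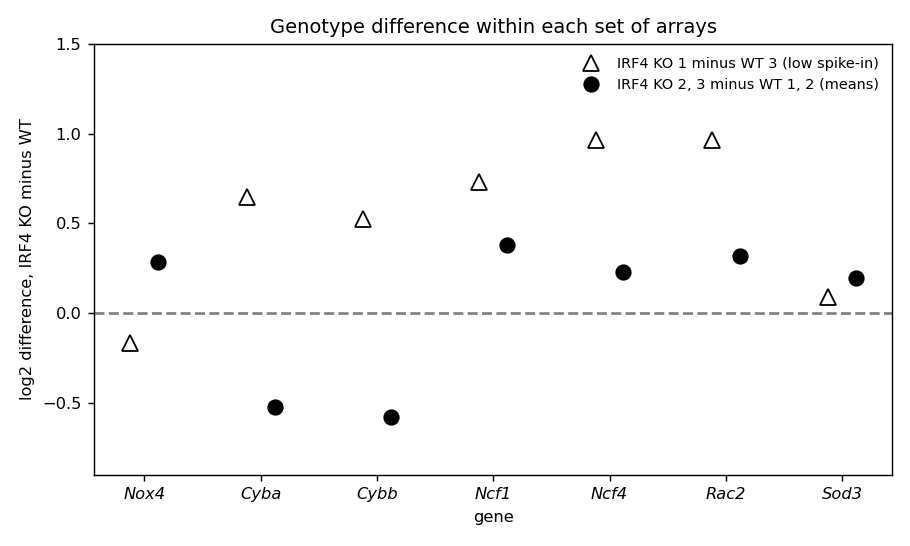
Log2 difference of IRF4 KO minus WT for each measured gene within the arrays with low spike-in controls (triangles, 1 array against 1) and over the other 4 arrays (circles, means of 2 against 2). The 2 differences had opposite signs for Nox4 (-0.16 and 0.29), Cyba (0.65 and -0.52) and Cybb (0.53 and -0.58), and both were positive for Ncf1, Ncf4, Rac2 and Sod3.

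Within the sets of arrays, Ncf1, Ncf4, Rac2 and Sod3 had a positive difference in both, and Nox4, Cyba and Cybb had opposite signs. The interaction of genotype with set passed for 0 of the 7 genes (limma adjusted p = 1 for each), and Cyba was the 1 gene with an unadjusted p under 0.05. The macrophage markers had a mean difference of 0.93 for IRF4 KO 1 minus WT 3 and of -0.47 in the other 4 arrays, the signs seen for Cyba and Cybb. The markers were not uniform in those 4 arrays. Cd14 (0.72), Fcgr1 (0.24), Adgre1 (0.13) and Mertk (0.11) had positive differences there, and the rest had negative ones. Cd14 and Adgre1 are named after their values were seen.

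Other parts of the oxidase system were read from a fixed list of partners. Of 19 partners, 16 were measured, 0 passed in either direction over all genes and 0 had an unadjusted limma p under 0.05; Nox3, Noxa1 and Arhgdia had no probe set of their own here. The change was positive for 14 and negative for 2, and 49.7% of all genes had a positive change. The median was 0.21 against -0.0015 over all genes, and 7 of the 16 partners had means below the median gene level. P4hb, a disulfide isomerase that associates with vascular oxidases, had the smallest p. It read 11.35, 10.72 and 10.72 in IRF4 KO 1 to 3 and 9.93, 10.56 and 10.64 in WT 1 to 3. The genotypes did not overlap, as in 5.68% of all genes, and the change was 0.55 (SE 0.27, limma adjusted p = 0.999). Rac1, the widely expressed RAC GTPase, read 9.91 ± 0.25 in IRF4 KO and 9.55 ± 0.47 in WT, and Vav1, a RAC exchange factor of blood cells, 3.87 ± 0.43 in IRF4 KO and 3.53 ± 0.26 in WT (SD, n = 3).

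Under the term for the set of arrays, 4 of the 16 partners were higher in IRF4 KO 1 and WT 3 than in the other 4 arrays and 0 were lower, beside 4.77% and 0.445% of all genes. They were Nrros, Prkcb, Arhgdib and Sh3pxd2b, named after their values were seen. Nrros, which limits the amount of gp91phox in phagocytes, read 6.19, 3.51 and 3.88 in IRF4 KO 1 to 3 and 3.69, 3.68 and 5.53 in WT 1 to 3. Prkcb, a kinase that phosphorylates p47phox, read 5.58, 3.51 and 3.46 in IRF4 KO 1 to 3 and 3.63, 3.05 and 5.49 in WT 1 to 3. For the dual oxidase gene Duox1 and the maturation factors Duoxa1 and Duoxa2, all values lay between 2.33 and 3.73, below the median gene level. These genes are named after their values were seen. Thyroid cells are the textbook site of Duox2, and 7 of 7 measured thyroid markers also had means below that level. Of the epithelial markers, 4 of 7 did so, and Epcam stayed between 6.30 and 6.64.

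Enzymes that remove superoxide and peroxide gave no call between genotypes. Of 26 listed genes, 23 were measured, 0 passed over all genes in either direction, 0 had an unadjusted limma p under 0.05, and 11 changes were positive and 12 negative, with a median of -0.0041. Under the set term 1 of the 23 was higher in IRF4 KO 1 and WT 3 and 0 were lower, beside 4.77% and 0.445% of all genes. It was Gpx7, named after its values were seen. Sod2, the mitochondrial superoxide dismutase, read 7.91, 8.003 and 7.69 in IRF4 KO 1 to 3 and 8.35, 8.29 and 7.84 in WT 1 to 3, a change of -0.29 (SE 0.21, limma adjusted p = 0.999). Sod1, the cytosolic copper and zinc dismutase, read 9.57 ± 0.26 in IRF4 KO and 9.94 ± 0.46 in WT (-0.37, SE 0.27). Prdx4, a peroxidase of the secretory pathway, read 9.24 ± 0.17 in IRF4 KO and 9.47 ± 0.32 in WT. The 3 dismutase genes thus had mean changes of unlike sign, positive for Sod3 and negative for Sod1 and Sod2. Within the sets of arrays, the sign differed for Sod1 and Sod2. IRF4 KO 1 minus WT 3 was 0.23 for Sod1 and 0.07 for Sod2, and the other 4 arrays gave -0.67 and -0.47. On the probe sets used, each of the 3 mean changes lay within 2 SE of 0. The second Sod3 probe set, at 0.78 (SE 0.35), lay outside that range, but its 95% interval of -0.03 to 1.59 included 0.

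Genes that supply copper to SOD3 or tether it were read as well. Between genotypes, 0 of 5 passed over all genes or at an unadjusted limma p under 0.05. Fbln5, an elastic fibre protein that binds SOD3, read 12.44, 11.46 and 11.68 in IRF4 KO 1 to 3 and 10.64, 11.16 and 12.30 in WT 1 to 3, a change of 0.49 (SE 0.43, limma adjusted p = 0.999). Like Sod3, it was highest in IRF4 KO 1 and WT 3, with a set difference of 1.14 (SE 0.23, limma adjusted p = 0.0152). Atox1, the copper chaperone of the secretory pathway, read 8.43 ± 0.70 in IRF4 KO and 8.68 ± 0.07 in WT, and Atp7a, the copper pump that loads SOD3, 6.98 ± 0.45 in IRF4 KO and 7.16 ± 0.48 in WT.

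Genes whose profiles over the 6 arrays came nearest to those of Nox4, Cybb and Sod3 were sought among 8889 other genes above the median level, by the root mean square difference of centred log2 values. For Cybb they were Ly86 (0.26), Fcgr3 (0.31) and Pcolce (0.37), where Cybb itself deviated from its mean by 1.55 on the same measure. Ly86 read 8.29, 4.02 and 4.13 in IRF4 KO 1 to 3 and 5.32, 4.53 and 7.74 in WT 1 to 3, and Fcgr3, an Fc receptor gene of myeloid cells, 7.64, 3.66 and 3.58 in IRF4 KO 1 to 3 and 4.43, 4.003 and 6.97 in WT 1 to 3. Pcolce read 10.46, 7.24 and 6.98 in IRF4 KO 1 to 3 and 7.97, 7.60 and 10.02 in WT 1 to 3. For Nox4, with a deviation of 0.39, they were the syndecan gene Sdc2 (0.10), the actin regulator Dstn (0.11) and Tff1 (0.12). For Sod3, with a deviation of 0.37, they were Hmga2 (0.06), Shc1 (0.09) and Sbf1 (0.09). These are descriptions over 6 arrays, of which 2 stand apart.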

How the data were processed

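The values of the 6 arrays were used as deposited: log2 probe set intensities that the authors made with Affymetrix Expression Console and RMA, per the submitters' processing notes, with versions and settings not given in the sources used here. Image files were not analysed here. Of 45101 probe sets, 34958 had 1 symbol in the platform annotation and entered the analysis. Where a gene had several, the brightest on average was used, which left 18194 genes with no filter on dim ones. The genotypes were compared in limma 3.58.1 (R 4.3.3; lmFit and eBayes, two-sided, no covariate), with Benjamini-Hochberg adjustment over all genes and a threshold of 0.05. Other probe sets of a gene were read from the same fit over all 34958 probe sets. The members and lists were chosen with earlier results of these data known. Named genes were all members; of each pathway list those with an unadjusted p under 0.05 and the 3 with the smallest p; of each cell type list the 2 brightest, given here for the lists that bear on the members; and the nearest profiles. Genes outside this rule are marked as named after their values were seen. B cells, T cells, osteoclasts and endothelium were listed too, and 0 of their measured genes passed between genotypes. One listed partner gene is not reported here. The number of arrays limits the precision. Replicate numbers did not pair the arrays. The alternatives are named with their values in the closing section.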

Additional observations from a re-analysis of the deposited data

How the results depend on the processing

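Over all alternatives tried, 0 of the measured oxidase genes passed the threshold, and the lowest limma adjusted p of any was 0.366, for Cyba with array weights. The alternatives were the replicate block, the spike-in set as a block, leaving out IRF4 KO 1 and WT 3 together, the mean of all probe sets, the fit on all probe sets, a filter on dim genes (which dropped Ncf4 and Rac2), array median subtraction, quantile normalization, an intensity trend with robust fit, array weights and leaving out each array. Over all genes, 0 were called except with array weights (68, where limma warned that the weights had not converged) and without the 2 arrays with low spike-in controls (5); the cause was not tested. The direction turned for Cybb with the mean of its probe sets (0.19) and for Nox4 with array weights (-0.034); the cause was not tested. Leaving out 1 array gave changes from -0.13 to 0.44 for Nox4, -0.64 to 0.25 for Cyba, -1.44 to 0.65 for Cybb, -0.27 to 1.15 for Ncf1, -0.11 to 0.82 for Ncf4, -0.075 to 1.004 for Rac2 and -0.067 to 0.42 for Sod3. The phagocyte minus vascular difference ran from -1.05 without IRF4 KO 1 to 0.89 without WT 3. With the replicate block 0 genes were called, and the correlations of same-numbered arrays' deviations from their genotype means were -0.41, 0.34 and -0.57, so the numbers were not treated as pairs. Ncf4, Rac2 and the dimmer probe sets of Cybb, Ncf1 and Rac2 have means below the median gene level, where RMA understates changes.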
